A study of Vitis vinifera with 12 samples.

Results

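The gene models described here are the thaumatin-like protein and osmotin copies of the grape array running from VIT_02s0025g04230 to VIT_02s0025g04340. They were chosen as a list of 10 identifiers, of which 8 were rows of the expression table, out of 22580 identifiers in all. The listed identifiers VIT_02s0025g04290 and VIT_02s0025g04300 were not analysed here. Copies are called below by the end of their identifier, g04330 for VIT_02s0025g04330. Which copy encodes a thaumatin-like protein and which an osmotin is not given in the sources used here, so no role is set to a single copy.

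Transcripts were measured by sequencing of polyadenylated RNA from fruit of Flame Seedless, a seedless red table grape. Berries were taken at 40, 50, 60 and 80 days after full bloom. Each age has 3 libraries (replicates a, b and c), and the labels name no treatment. The protocols in the labels speak of separate RNA extractions that were pooled afterwards, so libraries of an age may not be separate plants and p-values cover only the spread between libraries. Identifiers carry no gene names, so the tissue label could not be checked against marker genes, and the series' second cultivar was not analysed here.

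Thaumatin-like proteins and osmotins form a family of pathogenesis-related proteins with a compact fold held together by many disulfide bonds, and several of them inhibit the growth of fungi. In grape they belong, together with chitinases, to the main soluble proteins of the ripe berry, and they resist proteolysis well enough to persist into wine, where they cause protein haze. Family members are commonly encoded in tandem arrays, in which copies can be so alike that a short read fits more than a single copy. How such reads were shared out between copies is not given in the sources used here, so the level of each copy is uncertain to that extent.

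The array was dominated by g04330 at 40 days and had lost most of its summed transcript level by 60 days. The summed level of the 8 copies, in FPKM (a fragment count scaled to gene length and to the library's mapped fragments), was 12842, 12005 and 6983 in 40-day replicates a, b and c. It was 4047, 4007 and 2944 in the 50-day replicates, 2332, 1439 and 1663 in the 60-day replicates, and 2501, 2753 and 3488 in the 80-day replicates. Every 40-day library therefore stood above every later library, and every 80-day library stood above every 60-day library in this sum. As a share of all FPKM in a library, the array held 1.04% ± 0.324 (SD, n = 3) at 40 days, then 0.340% ± 0.0817 at 50 days. The 60-day share was 0.180% ± 0.0375 and the 80-day share 0.253% ± 0.0522. In this share the 60-day and 80-day libraries overlapped, with 0.221% in 60-day replicate a and 0.206% in 80-day replicate a. Among the 40-day libraries, replicate c stood at 0.661%, against 1.22% in both others. The summed transcript level was thus highest in the youngest berries sampled, and protein was not measured. These sums are given without a test. In whole berries, fewer cells of a type and less RNA per cell cannot be told apart.

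**Figure D1:**
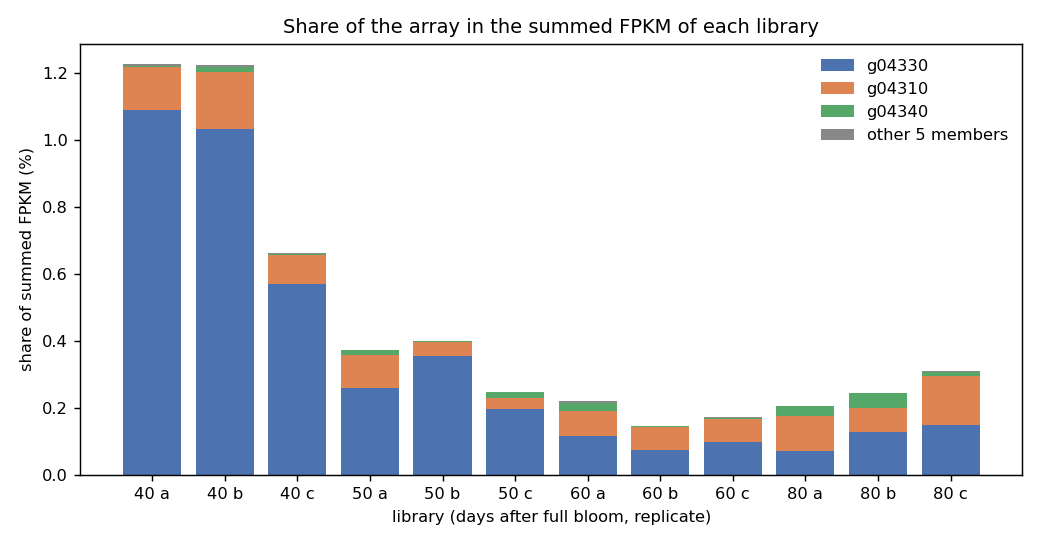
Share of the array in the summed FPKM of each of the 12 libraries (vertical axis, percent), with libraries ordered by days after full bloom and replicate letter. Bars are stacked as g04330, g04310, g04340 and all other copies together. The 40-day bars reach 0.661% to 1.22% and are mostly g04330, and the 60-day bars reach 0.147% to 0.221%.

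Of the 8 copies, 5 reached 1 FPKM in 3 or more libraries and entered the test. The other 3, g04230, g04260 and g04270, reached 1 FPKM in a single library each. Differences between ages were tested with limma on log2(FPKM + 1), over all 14579 identifiers that passed this filter. A change was called at a Benjamini-Hochberg adjusted p under 0.05 with a minimum difference of 1 (log2), a scale that understates the change of low gene models. In a limma F test over all ages together, 3 of the 5 tested copies were called (g04280, g04310 and g04330). In this test 24.3% of all tested identifiers were called. The adjusted p threshold was the same, and the minimum applied to the largest difference between ages. The copy g04340 was not called in the F test, though it was called from 40 to 80 days.

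From 40 to 50 days, 3 of the 5 tested copies fell and none rose, where 5.93% of all tested identifiers fell and 2.09% rose. The median log2 difference of the 5 was -1.18, against -0.025 over all tested identifiers. From 50 to 60 days, 1 copy fell, g04330, where 2.53% of all tested identifiers fell and 1.15% rose. From 60 to 80 days none of the 5 was called in either direction by limma, where 1.52% of all tested identifiers rose and 2.08% fell, and none had an unadjusted p under 0.05. Over the whole period, from 40 to 80 days, 2 fell and 1 rose, where 14.0% of all tested identifiers fell and 6.95% rose. The median of the 5 was -0.11 on the log2 scale and that of all tested identifiers 0.0024. In the comparisons that skip an age, 2 fell from 40 to 60 days, where 9.74% of all tested identifiers fell and 3.52% rose. From 50 to 80 days 1 rose and 1 fell, where 3.13% and 5.80% did. All these comparisons share libraries with each other.

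**Figure D2:**
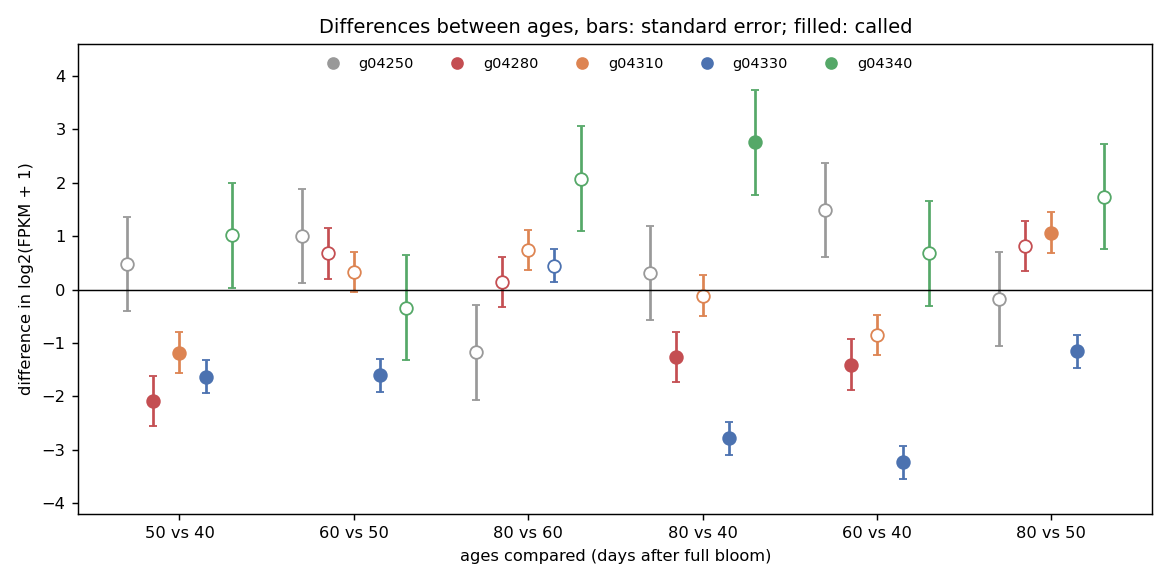
Difference in log2(FPKM + 1) between ages for the 5 tested copies (points, with limma standard errors as bars) in 6 comparisons, 3 libraries per age. Filled points were called. The lowest points are those of g04330 at 60 against 40 days (-3.23) and 80 against 40 days (-2.79), and the highest is that of g04340 at 80 against 40 days (2.76).

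The copy g04330 was among the most abundant transcripts of the young berry. Its level was 11433, 10132 and 6011 FPKM in 40-day replicates a, b and c, and 2818, 3559 and 2341 FPKM at 50 days. It was 1223, 722 and 946 FPKM at 60 days and 871, 1439.8 and 1683 FPKM at 80 days. No library of 40, 50 or 60 days overlapped with a library of another of these ages, while the 60-day and 80-day libraries overlapped. By rank among all identifiers of a library, g04330 was 8th, 7th and 16th at 40 days, 28th to 42nd at 50 days, 76th to 123rd at 60 days and 59th to 123rd at 80 days.

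From 40 to 50 days g04330 fell from 9192 ± 2830.5 to 2906 ± 614 FPKM (SD, n = 3), or -1.63 ± 0.309 (SE) on the log2 scale (limma adjusted p = 0.00285). From 50 to 60 days it fell to 963 ± 251 FPKM (-1.60 ± 0.309, limma adjusted p = 0.00862). The 60-day mean was 9.54-fold lower than the 40-day mean (log2 difference -3.23 ± 0.309, limma adjusted p = 2.57e-05). At 80 days the mean was 1331 ± 417 FPKM, and its difference from 60 days, 0.45 ± 0.309 on the log2 scale, did not pass the test (limma adjusted p = 0.332). Against 40 days the 80-day level was 6.90-fold lower (-2.79 ± 0.309, limma adjusted p = 2.23e-05). Against 50 days the log2 difference was -1.16 ± 0.309 (limma adjusted p = 0.0124). Without 80-day replicate a, this last difference was -0.88 (limma adjusted p = 0.043), under the minimum difference for a call.

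**Figure D3:**
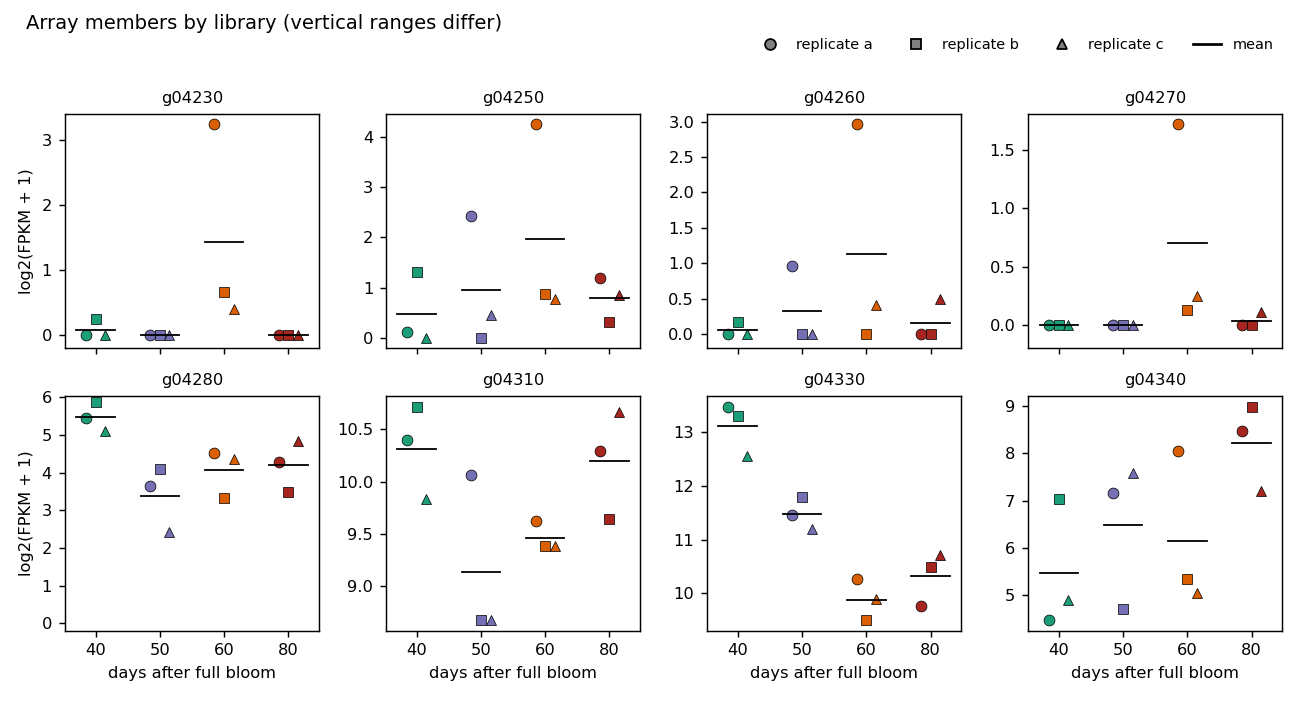
Level of each of the 8 copies in each library, as log2(FPKM + 1) against days after full bloom; marker shapes give the replicate letter, lines the mean of 3 libraries, and vertical ranges differ between panels. In the lower row g04280, g04310 and g04330 are lower at 50 than at 40 days on average, and the upper row is highest in 60-day replicate a.

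The copy g04310 was the second most abundant of the array and was lower on average at 50 and 60 days than at 40 and 80 days. It stood at 1345, 1684 and 909.5 FPKM in 40-day replicates a, b and c, and at 1068, 406 and 407 FPKM at 50 days. At 60 days it was 788, 668 and 664 FPKM, and at 80 days 1253, 795 and 1629 FPKM. The 50-day libraries were uneven, with replicate a inside the range of the 40-day libraries. All 60-day libraries lay below all 40-day and all 80-day libraries.

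From 40 to 50 days g04310 fell from 1313 ± 388 to 627 ± 382 FPKM (SD, n = 3), a log2 difference of -1.18 ± 0.379 (limma adjusted p = 0.0351). The call was lost without 40-day replicate a or b and without 50-day replicate b or c, with adjusted p-values up to 0.122. It was also lost without a filter on low values (0.0583) and in a fit to only these ages (0.0778). From 50 to 80 days it rose to 1226 ± 418 FPKM, a log2 difference of 1.07 ± 0.379 (limma adjusted p = 0.0437). This rise lost its call when any of 8 of the 12 libraries was left out (40-day replicate a, 50-day b or c, any 60-day replicate, 80-day a or c), with adjusted p-values up to 0.154. Under 3 other scalings of the libraries the adjusted p was 0.0552 to 0.0659, without a filter 0.0746, and in a fit to only these ages 0.1002. At 80 days the level differed from that at 40 days by -0.11 ± 0.379 on the log2 scale (limma adjusted p = 0.805). The 60-day level, 707 ± 70.3 FPKM, was lower than at 40 days by a log2 difference of -0.85 ± 0.379, which did not pass the test (limma adjusted p = 0.0859).

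The make-up of the array's transcripts was not alike at the ages. FPKM are per length, but how reads that fit several copies were shared out is not given. Ratios and shares of single copies are uncertain to that extent. The ratio of g04330 to g04310 was 8.50, 6.01 and 6.61 in 40-day replicates a, b and c, and 2.64, 8.76 and 5.76 at 50 days. It was 1.55, 1.08 and 1.42 at 60 days and 0.695, 1.81 and 1.03 at 80 days. The 40-day and 50-day libraries overlapped, as did the 60-day and 80-day libraries, and every library of the earlier pair of ages stood above every library of the later pair. In 80-day replicate a g04310 was the more abundant copy. The ratio is a description and was not tested.

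**Figure D4:**
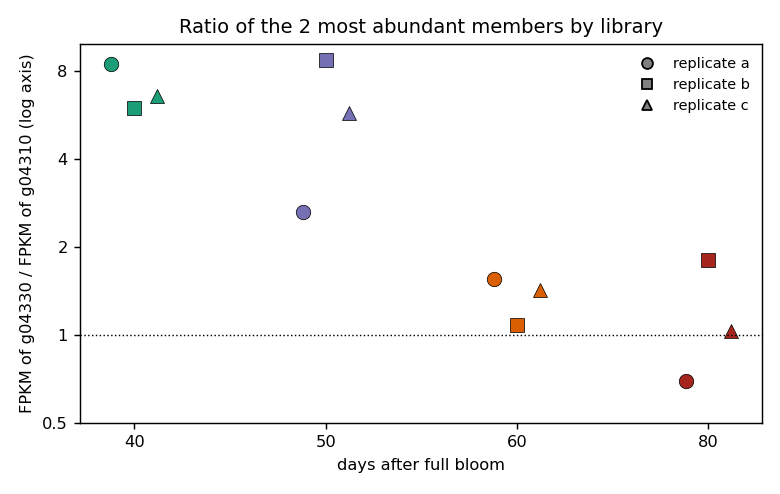
FPKM of g04330 divided by FPKM of g04310 in each library (vertical axis, log scale) against days after full bloom, with the replicate letter as the marker shape. The 40-day and 50-day libraries lie between 2.64 and 8.76, and the 60-day and 80-day libraries between 0.695 and 1.81.

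Within the array's sum, g04330 held 84.4% to 89.0% at 40 days and 34.8% to 52.3% at 80 days. The share of g04310 went from 10.5% to 14.0% at 40 days to 28.9% to 50.1% at 80 days. Both together held 98.4% to 99.5% of the sum at 40 days and 81.2% to 95.0% at 80 days. The share of g04340 was 0.165% to 1.08% at 40 days and 4.19% to 18.4% at 80 days. In 40-day replicates a and c g04280 held more of the sum than g04340, with 0.332% and 0.477%.

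The copy g04340 was the only tested copy called higher at 80 than at 40 days, and its libraries were very uneven. It stood at 21.2, 129.7 and 28.8 FPKM in 40-day replicates a, b and c, and at 143, 25.0 and 191 FPKM at 50 days. At 60 days it was 264, 39.4 and 32.3 FPKM, and at 80 days 357, 507 and 146 FPKM. All 80-day libraries lay above all 40-day libraries, with 146 against 129.7 FPKM as the nearest values, and the intermediate ages overlapped with both. The mean rose from 59.9 ± 60.6 to 337 ± 181 FPKM (SD, n = 3), a log2 difference of 2.76 ± 0.982 (limma adjusted p = 0.0304). The call was lost without 40-day replicate a, 40-day replicate c, 80-day replicate a or 80-day replicate b, with adjusted p-values of 0.0723 to 0.103, and without a filter on low values (0.0511). Over all ages together g04340 was not called (limma F test, adjusted p = 0.114).

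The copy g04280 was weakly expressed beside g04330 and g04310 and fell early. It stood at 42.6, 57.0 and 33.3 FPKM in 40-day replicates a, b and c, and at 11.6, 16.1 and 4.34 FPKM at 50 days. At 60 days it was 21.8, 9.02 and 19.5 FPKM, and at 80 days 18.3, 10.2 and 27.7 FPKM. All 40-day libraries lay above all later libraries, and the later ages overlapped with each other. The fall from 44.3 ± 11.95 to 10.7 ± 5.92 FPKM (SD, n = 3) between 40 and 50 days was a log2 difference of -2.08 ± 0.470 (limma adjusted p = 0.00699), and it was called with each library left out in turn. At 60 days the difference from 40 days was -1.40 ± 0.470 (limma adjusted p = 0.0296), a call lost without 40-day replicate a or b or 60-day replicate b (adjusted p up to 0.120). At 80 days it was -1.27 ± 0.470 (limma adjusted p = 0.0361), a call lost without 40-day replicate a or b or 80-day replicate a or b (adjusted p up to 0.137) and without a filter (0.0590). None of the differences between 50, 60 and 80 days was called for this copy.

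The other 4 copies, g04230, g04250, g04260 and g04270, were near or at 0 in most libraries and shared a single high library, 60-day replicate a. In g04250 the values were 0.0917, 1.50 and 0 FPKM in 40-day replicates a, b and c, 4.40, 0 and 0.378 FPKM at 50 days, 18.0, 0.832 and 0.723 FPKM at 60 days and 1.28, 0.256 and 0.813 FPKM at 80 days. No difference between ages was called for g04250, the only tested copy of these 4. Its log2 difference from 40 to 60 days was 1.49 ± 0.883 (limma adjusted p = 0.189), and 0.35 without 60-day replicate a.

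In g04230, 60-day replicate a had 8.43 FPKM, followed by 0.588 and 0.320 FPKM in 60-day replicates b and c and 0.185 FPKM in 40-day replicate b, and the other 8 libraries were listed at 0. In g04260, 60-day replicate a had 6.81 FPKM, followed by 0.950 FPKM in 50-day replicate a, 0.405 FPKM in 80-day replicate c, 0.327 FPKM in 60-day replicate c and 0.127 FPKM in 40-day replicate b, with 7 libraries listed at 0. In g04270, 60-day replicate a had 2.30 FPKM, followed by 0.188 FPKM in 60-day replicate c, 0.0926 FPKM in 60-day replicate b and 0.0788 FPKM in 80-day replicate c, with 8 libraries listed at 0. Values listed at 0 can be failed estimates as well as absent reads.

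Such single-library highs were few in every library except 40-day replicate b. By a criterion set after these values were seen (at least 1 FPKM and at least 4 times every other library), 10 of the 22580 identifiers were high in 60-day replicate a alone, and these 4 copies were among the 10. As the criterion was set with these copies in view, their place among the 10 is a description and no test. The ratio to the next library was 4.08 in g04250, 7.17 in g04260, 12.2 in g04270 and 14.3 in g04230. The other libraries had 5 to 28 such identifiers, except 40-day replicate b with 127, and none of these was an array copy. In the same library g04340 stood at 264 FPKM against 39.4 and 32.3 FPKM in the other 60-day libraries. The copies g04280, g04310 and g04330 were also highest in replicate a among the 60-day libraries, by smaller margins. Whether reads from a single copy were shared out over several was not tested.

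Large differences between libraries of the same age were a common feature of the tested copies. The residual SD of log2(FPKM + 1) within ages was 0.426 in g04330, 0.534 in g04310, 0.667 in g04280, 1.25 in g04250 and 1.40 in g04340, against a median of 0.170 over all tested identifiers. Among tested identifiers whose mean level was within a factor of 2 of that of the copy, 87.2% (of 39) had a smaller SD than g04330 and 95.3% (of 172) a smaller SD than g04310. For g04280 the share was 97.7% (of 4799), for g04340 99.5% (of 1500) and for g04250 99.4% (of 2907). The copies did not share 1 ordering of libraries. At 80 days, g04280, g04310 and g04330 were highest in replicate c, where g04340 was lowest. At 40 days, the same 3 copies were lowest in replicate c.

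Few neighbours of the array in identifier order were called. The comparison list held the 10 identifiers of the VIT_02s0025 block before the array, the 10 after it, and VIT_02s0025g04320, which lies inside the range and is not on the list of copies. Of these 21 identifiers 17 were tested. From 40 to 80 days 2 of them fell and none rose, where 14.0% of all tested identifiers fell and 6.95% rose, with a median log2 difference of 0.22 and a range from -1.52 to 0.45. Outside the range of the array, 1 of the 10 tested before it fell and none of the 6 tested after it did. The inner identifier VIT_02s0025g04320 fell from 2.40, 5.33 and 4.26 FPKM in 40-day replicates a, b and c to 0.993, 1.42 and 0 FPKM at 80 days (log2 difference -1.52 ± 0.440, limma adjusted p = 0.0112). Its level was low at both ages. VIT_02s0025g04210, before the array, fell from 10.9, 23.3 and 19.8 FPKM to 7.15, 10.1 and 4.21 FPKM (-1.23 ± 0.316, limma adjusted p = 0.00587). The identifier next after the array, VIT_02s0025g04350, differed by -0.16 ± 0.0937 (limma adjusted p = 0.173). From 40 to 50 days 1 of the 17 was called lower, again VIT_02s0025g04320, where 5.93% of all tested identifiers were. VIT_02s0025g04350 went from 176 ± 13.8 to 104 ± 12.3 FPKM (SD, n = 3). Its log2 difference of -0.75 ± 0.0937 (limma adjusted p = 0.000299) was under the minimum for a call. Also under an adjusted p of 0.05 but not that minimum, VIT_02s0025g04120, VIT_02s0025g04150, VIT_02s0025g04170 and VIT_02s0025g04210 were lower. VIT_02s0025g04400 and VIT_02s0025g04430 were higher in the same way. A difference between the array and its neighbours was not tested.

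**Figure D5:**
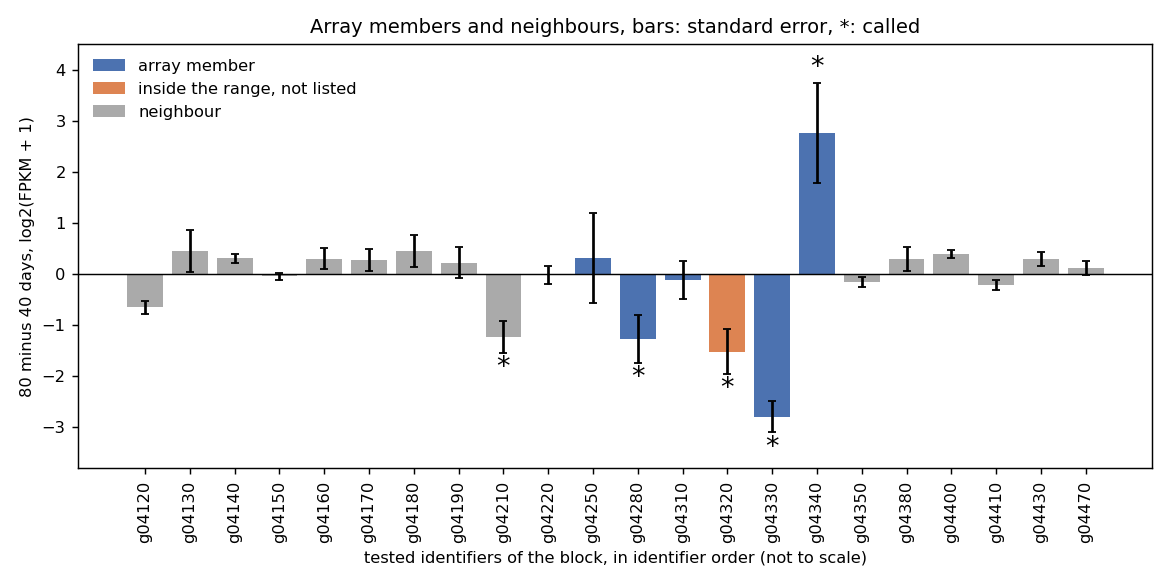
Difference in log2(FPKM + 1) between 80 and 40 days (bars, with limma standard errors) for the tested identifiers of the VIT_02s0025 block around the array, in identifier order. Array copies range from -2.79 to 2.76, and the neighbours and the inner identifier from -1.52 to 0.45; asterisks mark calls.

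Identifiers with the course most like that of a copy were looked for among 8366 identifiers outside the array with a mean of at least 10 FPKM, by the root-mean-square difference of centred log2(FPKM + 1) over the 12 libraries. For g04330, whose own values lay 1.30 about their mean by the same measure, the nearest were VIT_00s0233g00010 (0.413), VIT_01s0011g04760 (0.481) and VIT_06s0061g01250 (0.484). The first of these had 34.8 ± 10.8 FPKM (SD, n = 3) at 40 days, and 7.80 ± 2.61, 3.74 ± 1.23 and 3.40 ± 1.23 FPKM at the later ages in turn. VIT_06s0061g01250, the most abundant of the 3, had 192 ± 17.0, 54.2 ± 12.98, 21.7 ± 0.966 and 26.7 ± 4.11 FPKM at these ages. For g04280 the nearest was VIT_08s0040g02700 (0.533, against 0.928 about its own mean), and for g04310 VIT_12s0059g02510 (0.384, against 0.660). Among the copies themselves the nearest pair was g04280 and g04310 (0.649) and the farthest g04330 and g04340 (2.36). The tested copy nearest to g04330 was g04280, at 1.07. The 0.649 was little under the 0.660 of g04310 about its own mean, and the 1.07 was above the 0.928 of g04280. Identifiers outside the array were picked as the nearest of 8366, so their smaller distances cannot be set against those between copies.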

How the data were processed

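The authors deposited 1 table of FPKM values with 22580 identifiers and 12 libraries. The submitters' processing notes name Trimmomatic 0.36, FastQC, TopHat2 and Cufflinks, among others, without roles. Genome build, annotation and filters: not given in the sources used here. The library codes in the labels tie columns to samples. No identifier of the deposited table, and none of the listed ones (0 of 10), matched the RefSeq table of assembly ASM3070453v1. No product name, coordinate or sequence is therefore given.

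A mean per age was fitted to log2(FPKM + 1) of 14579 identifiers in limma 3.58.1 under R 4.3.3. The prior variance followed a trend, libraries were not rescaled, and p-values were adjusted over all of them. The fit was tested on simulated data. Depth is unknown: among values under 0.5 FPKM in 66 pairs of libraries, the fullest bin of 0.005 (log2 ratio) held at most 2.62% of identifiers, which shows no steps of 1 read, and a count test was not possible.

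The members, lists and tests were chosen with earlier results of these data known. The identifiers named are all copies present, neighbours called from 40 to 80 days, and those nearest in course. The latter were 3 for the most abundant copy and 1 for each other copy called in the F test over all ages together. Other identifiers were chosen after their values were seen. Alternatives were another pseudocount, other filters, other scalings, no minimum difference, no trend, a fit to only the ages compared, the replicate letter as a block and leaving out each library.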

Additional observations from a re-analysis of the deposited data

How the results depend on the processing

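The 50-to-40, 60-to-50 and 80-to-60-day counts of called copies (3, 1 and 0) stayed within 1.5 times their value in every alternative run. From 40 to 80 days 1 copy was called instead of 3 without a filter on low values; leaving out libraries gave 1 to 3. From 40 to 60 days leaving out libraries gave 1 to 2 copies, and from 50 to 80 days 0 to 2. In the F test over all ages together, leaving out libraries gave 1 to 3 copies. From 50 to 80 days 1 copy, the falling g04330, was called instead of 2 without a filter, with quantile normalization, with libraries rescaled without their 10 most abundant identifiers or to the identifiers outside the array, and in a fit to only the ages compared. Without a filter more identifiers are tested, and a fit to 2 ages has fewer libraries; otherwise the cause was not tested. Rescaling to the identifiers outside the array makes their summed FPKM equal in all libraries. Before it, the mean sum over all identifiers was 1.03e+06 FPKM at 40 days and 1.16e+06 FPKM at 80 days. This rescaling moved the median log2 difference of all identifiers from 40 to 80 days from 0.0024 to -0.15. With the 10 most abundant other identifiers taken out of the denominator, the array's share of summed FPKM was 1.32% at 40 days. It was then 0.465% at 50 days, 0.239% at 60 days and 0.350% at 80 days. This denominator is smaller by construction. Of 654 log2 differences of single copies under alternatives, 605 kept direction and side of the threshold, 34 lost their call and 15 changed sign, none of the latter a called difference. All falls of g04330 kept their call throughout, except the fall from 50 to 80 days described above.

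The sign changes outside left-out libraries were g04280 from 60 to 80 days (-0.055 when rescaled to identifiers outside the array) and g04250 from 50 to 80 days (0.35 with a pseudocount of 0.1). With libraries left out, g04250 ranged from -0.25 to 0.97 from 40 to 50 days, from -0.14 to 1.74 from 50 to 60 days and from -0.66 to 0.56 from 50 to 80 days. The copy g04340 ranged from -1.29 to 0.21 from 50 to 60 days and from -0.27 to 1.46 from 40 to 60 days. The copy g04280 ranged from -0.23 to 0.49 from 60 to 80 days, and g04310 from -0.36 to 0.17 from 40 to 80 days.

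With the replicate block, g04280 lost its call from 40 to 80 days (-1.27, limma adjusted p = 0.0551), and no other copy's call changed. The letters showed no pairing: over 18 pairs of libraries that carry 1 letter, correlations of deviations from the age mean had a median of 0.019 and a range of -0.298 to 0.249, and 4 exceeded 0.1. The 3 copies left out of the test by the filter were tested without it and none was called; the lowest limma adjusted p was 0.0998, for g04230 at 60 against 40 days. Depth is unknown, so counting error in the low copies cannot be separated from other spread.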

Other observations

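Besides the 4 array copies, 6 identifiers met the same criterion of being high in 60-day replicate a alone, and they were looked up after the criterion had been set. VIT_15s0046g03770 had 19.9 FPKM there and at most 4.10 FPKM elsewhere. VIT_13s0019g01590 had 2.31 FPKM against at most 0.456 FPKM, and VIT_05s0077g01600 had 1.95 FPKM against at most 0.462 FPKM. VIT_00s0780g00030, VIT_19s0014g03710 and VIT_00s0505g00060 had 3.69, 1.07 and 1.06 FPKM and were listed at 0 in every other library. None of the 6 lies in the identifier block of the array.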
